A study of Mus musculus with 7 samples.

Results

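Etv5, Spry1, Spry2, Dusp2, Dusp5 and Dusp6, 6 of the 32286 features in the count matrices, were followed across stages of T cell development in the adult mouse thymus. They were chosen by symbol, with earlier results of these data known, because each is a gene that ERK signalling is known to switch on. For 5 of them the product then dampens that signalling. Single-cell RNA sequencing (10x 3' v3) counted unique molecular identifiers (UMIs, tags that mark single transcript molecules) in double-negative (DN) thymocytes, which carry neither CD4 nor CD8. DN3a cells have not been selected on a T cell receptor (TCR), DN3b cells have just been selected, and DN4 cells come next. The WT C57BL/6 thymi were pooled from female and male mice of 6 to 8 weeks, depleted of CD4+ and CD8+ cells with magnetic beads and sorted into 5 groups, each giving 1 library: DN3a, DN3b γδ− and DN4 γδ− without a γδ TCR on the surface, and DN3b γδ+ and DN4 γδ+ with one. CD71, the transferrin receptor, separated DN3b γδ− from DN3a, so that the former is enriched in cells that divide. The study describes DN4 γδ− cells as CD71+ too. It gives the γδ+ groups as TCRδ+ CD3+ CD24+ CD44low and names no CD71 gate for them, so the γδ− and γδ+ gates differ. A further 2 libraries, Lat-KO DN3 γδ− and Lat-KO DN3 γδint (an intermediate level of surface γδ TCR), came from pooled thymi of mice with the genotype Lat-/-TCRd-H2BEGFP, whose age the labels do not give. These mice lack LAT, the membrane adaptor that links the TCR to the RAS and calcium pathways, and carry a green fluorescent reporter joined to the δ chain gene, which the WT mice lack. All 7 libraries were spiked with 500 splenic B cells. Members were measured in thymocyte barcodes, those with at most 1 UMI of Cd79a, Cd79b and Ms4a1 together. With 1 library per group no difference was tested. The 95% intervals cover counting error only, and "higher" or "lower" beyond 2-fold describes these libraries rather than the conditions.

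A TCR signal reaches ERK through LAT, phospholipase C-γ1, RASGRP1 and RAS. ERK then enters the nucleus, where it switches on transcription factors of the EGR, FOS and ETS families together with the genes that limit it. ETV5 is an ETS factor of the PEA3 family and is induced by ERK. The Sprouty proteins SPRY1 and SPRY2 hold back signalling upstream of ERK, at the level of RAS and RAF. The dual-specificity phosphatases remove phosphate from MAP kinases: DUSP6 acts on ERK in the cytoplasm, DUSP5 on ERK in the nucleus, and DUSP2 (PAC-1), a nuclear phosphatase of activated lymphocytes, also acts on other MAP kinases. Stronger TCR signals are known to favour the γδ over the αβ fate in the thymus, which is why the level of such genes at this branch is of interest.

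On the mm10 assembly, Etv5 (ENSMUSG00000013089) lies on the reverse strand of chromosome 16, from 22381309 to 22439719. Spry1 (ENSMUSG00000037211) lies on the forward strand of chromosome 3, from 37639947 to 37644598, and Spry2 (ENSMUSG00000022114) on the reverse strand of chromosome 14, from 105891947 to 105896819. Dusp2 (ENSMUSG00000027368) lies on chromosome 2, from 127336159 to 127338376, Dusp5 (ENSMUSG00000034765) on chromosome 19, from 53529109 to 53542431, and Dusp6 (ENSMUSG00000019960) on chromosome 10, from 99263231 to 99267489, all on the forward strand. All 6 are protein coding. Because the genes moved together between DN3b γδ+ and DN3b γδ−, the 250 bases before each RefSeq start (GRCm38.p6, 7 windows of 6 genes) were searched on both strands for sequences bound by factors that TCR signals control. These were the CArG box of SRF, the EGR sequence GCGNGGGCG, the ETS sequence CCGGAA, the AP-1 sequence TGANTCA and the E-box CACGTG. The cAMP response element TGACGTCA and its last 6 bases, ACGTCA, which overlap each other, were searched too. Matches were found before Dusp2 and Dusp5 and in none of the windows of the other 4 genes. The windows with matches are shown 5′ to 3′, with the matches in capitals and ending where the first annotated exon begins.
Dusp2, chr2:127335909-127336158, forward strand: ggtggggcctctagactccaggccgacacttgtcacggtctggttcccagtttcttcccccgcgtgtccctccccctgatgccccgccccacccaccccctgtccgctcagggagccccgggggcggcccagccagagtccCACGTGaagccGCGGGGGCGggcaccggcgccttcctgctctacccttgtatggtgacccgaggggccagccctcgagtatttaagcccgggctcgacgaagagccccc
Dusp5, chr19:53528895-53529108, forward strand: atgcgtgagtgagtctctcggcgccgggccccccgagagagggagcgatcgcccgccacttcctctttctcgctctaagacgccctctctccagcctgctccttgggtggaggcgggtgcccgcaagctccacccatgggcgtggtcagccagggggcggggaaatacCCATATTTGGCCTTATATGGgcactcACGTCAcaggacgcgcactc
The Dusp5 window held 2 CArG boxes that adjoin each other, with first bases 82 and 72 before the RefSeq start, and an ACGTCA that begins 56 before it. Of 32817 such windows of the annotation, 1.47% held a CArG box and 6.46% an ACGTCA. The Dusp2 window held an E-box (6.02% of windows) and an EGR sequence (4.7% of windows), which begin 109 and 98 bases before the start. The ETS, AP-1 and full cAMP response sequences stood in 12%, 6.75% and 1.55% of windows. A match is a run of letters and not evidence that a factor binds there.

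The thymocyte barcodes numbered 71081 of 90016 deposited, between 5274 and 18515 per library. Median UMIs per barcode ranged from 5737.5 in Lat-KO DN3 γδint to 18506 in WT DN4 γδ−. Lat itself stood at 357 to 648 CPM (UMIs of a gene scaled to the library's total) in the WT libraries and at 4.83 and 0.899 CPM in Lat-KO DN3 γδ− and γδint. All 10 T cell markers had UMIs in every library, and the summed B cell markers stood at 30.7 to 82.1 CPM in thymocyte barcodes against 19162 to 42137 CPM in B cell barcodes. In Lat-KO DN3 γδint ribosomal-protein genes took 18.1% of the UMIs against 27.6% to 33.7% elsewhere, which moves every share of the total in that library. Scaling by trimmed mean of M values (TMM) in place of totals moved the log2 ratios of all genes alike within a comparison, by -0.74 when Lat-KO DN3 γδint was set against WT DN3b γδ+ and by -0.25 against its own γδ− library. The shift was -0.17 for Lat-KO DN3 γδ− against DN3a, 0.36 and 0.32 for WT DN3b γδ− and γδ+ against DN3a, -0.30 for DN4 γδ+ against its DN3b stage and under 0.1 for the others. The libraries shared 925 barcode sequences. A lower level in a library cannot be told apart between fewer cells that hold the transcript and less of it in each cell, except where shares of barcodes are given.

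Etv5, the transcription factor of the set, was highest in the γδ+ libraries by a wide margin. It stood at 1.19 CPM (0.917 to 1.52) in WT DN3a, 6.92 CPM (6.64 to 7.2) in DN3b γδ− and 4.12 CPM (3.87 to 4.38) in DN4 γδ−, against 71 CPM (69.8 to 72.2) in DN3b γδ+ and 148 CPM (145 to 151) in DN4 γδ+. In the Lat-KO libraries Etv5 had 3 UMIs in DN3 γδ− (0.0596 CPM, 0.0123 to 0.174) and 111 UMIs in DN3 γδint (2.93 CPM, 2.41 to 3.53). No neighbours in this order had overlapping intervals. The third highest library, DN3b γδ−, stood at 4.67% of the highest.

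The Sprouty genes differed from each other in their order. Spry2 followed Etv5 at the top, with 26.2 CPM (25 to 27.4) in WT DN4 γδ+ and 15.1 CPM (14.6 to 15.7) in DN3b γδ+, but was next highest in DN3a at 4.06 CPM (3.54 to 4.63). Spry2 was lowest in the γδ− cells after selection, at 0.316 CPM (0.259 to 0.382) in DN3b γδ− and 0.744 CPM (0.639 to 0.86) in DN4 γδ−. The Lat-KO libraries lay between these, with 2.27 CPM (1.87 to 2.72) in DN3 γδ− and 1.06 CPM (0.756 to 1.44) in DN3 γδint, the latter overlapping DN4 γδ−. Spry1 did not share the peak in DN4 γδ+. WT DN3a at 8.06 CPM (7.32 to 8.85), DN3b γδ+ at 7.88 CPM (7.49 to 8.28) and Lat-KO DN3 γδint at 7.03 CPM (6.21 to 7.93) could not be separated by their intervals from their neighbours in the order. Spry1 then stood at 5.78 CPM (5.14 to 6.49) in Lat-KO DN3 γδ−, 4.25 CPM (3.78 to 4.77) in DN4 γδ+, 3.65 CPM (3.41 to 3.9) in DN4 γδ− and 1.84 CPM (1.7 to 1.99) in DN3b γδ−.

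The 3 phosphatase genes had their highest level in WT DN4 γδ+ and their lower levels in the WT γδ− cells after selection. Dusp2 stood at 178 CPM (175 to 181) in DN4 γδ+, 144 CPM (142 to 145) in DN3b γδ+ and 92.3 CPM (89.7 to 94.9) in DN3a, and at 48.7 CPM (48 to 49.5) in DN3b γδ− and 35.5 CPM (34.7 to 36.2) in DN4 γδ−. Lat-KO DN3 γδint, at 97.4 CPM (94.3 to 101), overlapped WT DN3a, and Lat-KO DN3 γδ− was at 76.6 CPM (74.2 to 79.1). Dusp5 was different in that DN3a, at 76.5 CPM (74.1 to 78.8), came second, below DN4 γδ+ at 97.4 CPM (95.1 to 99.7) and above DN3b γδ+ at 66.7 CPM (65.5 to 67.8). Dusp5 was also the phosphatase gene that differed most between the Lat-KO libraries, with 62.9 CPM (60.7 to 65.1) in DN3 γδ− and 36.5 CPM (34.6 to 38.5) in DN3 γδint. DN4 γδ− and DN3b γδ− were lowest, at 21.7 CPM (21.1 to 22.3) and 20.2 CPM (19.7 to 20.7). Dusp6 stood at 18.6 CPM (17.6 to 19.6) in DN4 γδ+ and 13.2 CPM (12.7 to 13.7) in DN3b γδ+. Lat-KO DN3 γδint (6.45 CPM, 5.67 to 7.31), WT DN3a (5.49 CPM, 4.88 to 6.15) and Lat-KO DN3 γδ− (5.07 CPM, 4.47 to 5.73) followed with overlapping intervals. Both WT γδ− libraries after selection were at 1.34 CPM.

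**Figure D1:**
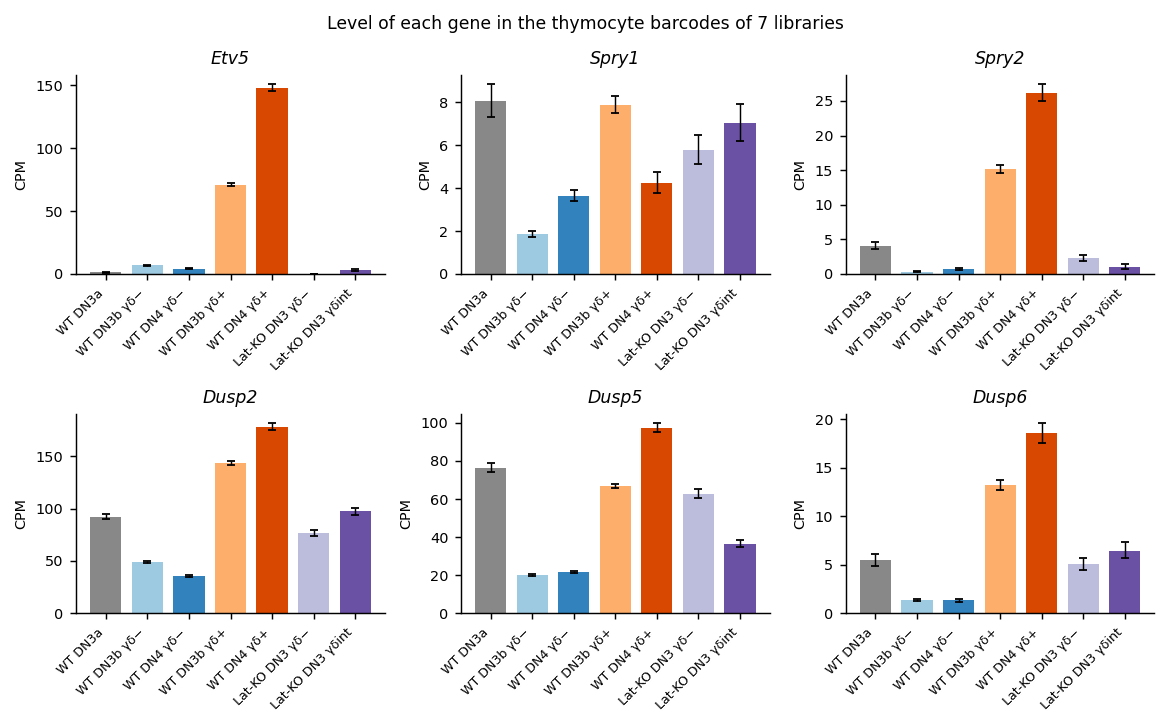
Level in CPM (vertical axes, linear, each gene on its own scale) of the 6 genes in the thymocyte barcodes of the 7 libraries, with exact Poisson 95% intervals. Etv5, Spry2, Dusp2, Dusp5 and Dusp6 are highest in WT DN4 γδ+, and Spry1 is highest in WT DN3a at 8.06 CPM, with an interval that overlaps that of WT DN3b γδ+.

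Detection per barcode was compared after each barcode had been thinned to 4000 UMIs, which left out 4.55% to 20.3% of the thymocyte barcodes of a library as too shallow. Etv5 was detected in 36.3% (35.2 to 37.4, exact Clopper-Pearson) of WT DN4 γδ+ barcodes and in 22.4% (21.6 to 23.2) of those of DN3b γδ+, against 2.36% in DN3b γδ−, 1.57% in DN4 γδ−, 0.683% in Lat-KO DN3 γδint and 0.31% in WT DN3a. It was seen in 0 of 6125 barcodes of Lat-KO DN3 γδ−, with an upper bound of 0.0602% by the same method (3 counts would be 0.049%), which limits barcodes with a UMI and not cells with the transcript. Without thinning DN3b γδ+, with its deeper barcodes, showed Etv5 in 53.4% and DN4 γδ+ in 45.4%, so the order of these libraries depends on depth. Dusp2 was detected in 12.9% (DN4 γδ−) to 44.2% (DN4 γδ+) of barcodes and Dusp5 in 8.36% (DN3b γδ−) to 31.4% (DN4 γδ+). The shares of Spry1, Spry2 and Dusp6 did not pass 3.49%, 7.66% and 7.31% in any library. Spiked B cell barcodes gave a gauge of free RNA. Their Cd3e level was 3.35% to 17.7% of that in the thymocyte barcodes of the same library. The sum of 10 T cell markers was at 5.51% to 24.3%, and Thy1 reached 32.6% in DN3b γδ+. Etv5 in B cell barcodes was at 12.3 CPM in DN3b γδ+ and 23.9 CPM in DN4 γδ+, and at 0 to 2.88 CPM in the other 5 libraries. At 4000 UMIs it was seen in 3.92% of 51 and in 7.02% of 57 B cell barcodes of those 2 libraries (median UMIs of all B cell barcodes 3696 and 3662.5). B cell barcodes held Dusp2 at 151 to 220 CPM and Dusp6 at 9.41 to 25.6 CPM. The Dusp2 level was above that in thymocytes in all 7 libraries and the Dusp6 level in all but DN4 γδ+ (17.1 against 18.6 CPM), so these cells are no gauge of free RNA for either gene. Dusp5 stood at 1.43 to 16.5 CPM in B cell barcodes, from 1 to 7 UMIs a library, and in DN4 γδ− at 16.5 CPM (6.62 to 33.9) against 21.7 CPM in thymocytes. The part of free B cell RNA in the thymocyte levels of these 3 genes was not tested.

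At least 1 of the 6 genes was detected in 79.2% of WT DN4 γδ+ and 68.2% of DN3b γδ+ barcodes at 4000 UMIs, against 47.3% in DN3a, 26.9% in DN3b γδ− and 23% in DN4 γδ−. The Lat-KO libraries stood close to DN3a, with 41.1% in DN3 γδ− and 42.8% in DN3 γδint. Barcodes with 2 or more of the genes were 37.9% of DN4 γδ+, 26.2% of DN3b γδ+ and 9.72% of DN3a, and 2.46% to 7.3% in the other 4 libraries.

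**Figure D2:**
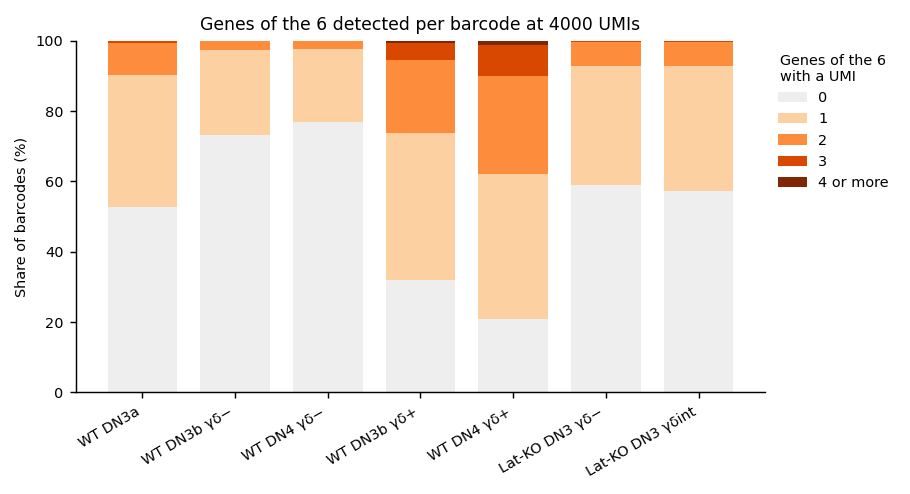
Share of thymocyte barcodes (vertical axis, percent) in which 0, 1, 2, 3 or at least 4 of the 6 genes had a UMI, each barcode thinned to 4000 UMIs. The pale segment for 0 genes is shortest in WT DN4 γδ+ (20.8%) and longest in WT DN4 γδ− (77%).

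The step from DN3a to DN3b γδ− asks what changes when cells pass selection on the pre-TCR. Here 4 genes were lower by at least 2-fold, where 14.6% of 5968 features with at least 20 CPM in either library were, and 1 was higher, where 11.4% of features were. Such shares here and in the other comparisons are over features that reach this minimum, which 2 of the 6 genes did, and of these Dusp5 was lower. Spry2 was lower by a log2 ratio of -3.68 (-4.03 to -3.34), Spry1 by -2.13 (-2.31 to -1.95), Dusp6 by -2.04 (-2.25 to -1.82) and Dusp5 by -1.92 (-1.97 to -1.86). Dusp2 lay within 2-fold at -0.92 (-0.97 to -0.87). Etv5 alone was higher, at 2.54 (2.18 to 2.92), from 64 UMIs to 2343. The share of cycling barcodes (at least 5 UMIs of 18 cycle genes at 4000 UMIs) differed in the same comparison, from 2.29% in DN3a to 91.8% in DN3b γδ−. Among cycling barcodes alone Etv5 stood at 7.73 CPM in DN3a (18 UMIs in 148 barcodes) and 7.06 CPM in DN3b γδ−, a log2 ratio of -0.13, and Dusp6 at -0.37. The ratio of Dusp5 was -0.99 among non-cycling barcodes (at most 1 UMI). Among these Etv5 stood at 0.617 CPM in DN3a and 3.47 CPM in DN3b γδ− (10 UMIs). Dusp6 stood at 5.58 and 2.08 CPM (6 UMIs in DN3b γδ−), and both genes stayed past 2-fold there.

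From DN3a to DN3b γδ+, the step of selection on a γδ TCR, 3 genes were at least 2-fold higher (11.5% of 5975 features) and none lower (13.4% of features). Of these, Etv5 alone reached 20 CPM in either library, with Dusp2 and Dusp5 of the others. Etv5 was higher by 5.90 (5.54 to 6.27) on the log2 scale, which is 59.6-fold, Spry2 by 1.90 (1.70 to 2.10) and Dusp6 by 1.26 (1.09 to 1.44). Dusp2, at 0.64, Spry1, at -0.03, and Dusp5, at -0.20, lay within 2-fold, and the sign of Spry1 and Dusp5 turned to 0.29 and 0.13 with TMM scaling. Cycling barcodes were 2.29% of DN3a and 81.5% of DN3b γδ+. Among them alone Etv5 stood at 7.73 and 72.1 CPM (18 UMIs in DN3a), Dusp6 at 1.72 and 13.3 CPM (4 UMIs in DN3a), and Dusp2 was past 2-fold at 1.29. Dusp5 was at 0.51 among cycling and 0.18 among non-cycling barcodes, and Spry1 at 0.67 among cycling ones. Among non-cycling ones Spry1 stood at 7.96 CPM (7.14 to 8.84) in DN3a and 15.9 CPM (12.4 to 20) in DN3b γδ+. Among cycling ones its intervals overlapped, with 4.3 CPM (2.06 to 7.9, 10 UMIs) in DN3a and 6.83 CPM (6.44 to 7.24) in DN3b γδ+. Spry1 was thus higher in DN3b γδ+ beyond counting error among non-cycling barcodes only, unlike over all barcodes. Both DN3b libraries were set against the same DN3a library, so these ratios share their denominator.

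Set directly against each other, the DN3b libraries separated the whole set. All 6 genes were at least 2-fold higher in γδ+ than in γδ− cells, where 5.13% of 5415 features were higher and 1.79% lower. Etv5, Dusp2 and Dusp5 reached 20 CPM in either library, and the share does not cover the other 3. The genes were picked with earlier results of these data in view, so this count is a description of them. Spry2 was 47.9-fold higher (log2 5.58, 5.30 to 5.87), Etv5 10.3-fold (3.36, 3.30 to 3.42) and Dusp6 9.86-fold (3.30, 3.16 to 3.45). Spry1 was 4.28-fold, Dusp5 3.3-fold and Dusp2 2.95-fold higher. Cycling barcodes were most of both libraries (91.8% and 81.5%), and among them alone the 6 calls were kept, as among non-cycling barcodes and with every other setting tried.

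From DN3b γδ− to DN4 γδ− little moved: 0.524% of 5148 features were at least 2-fold higher and 0.66% lower. Spry2 was past 2-fold, at 1.23 (0.88 to 1.59), but only from 107 to 181 UMIs and under that minimum, which 2 of the genes reached. Among cycling barcodes, 91.8% and 91.2% of these libraries, Spry2 was within 2-fold at 0.65. Among non-cycling ones Spry2 had 0 UMIs in DN3b γδ− and 21 UMIs (10.1 CPM) in DN4 γδ−. Spry1 reached 0.99. Etv5 was at -0.75 and turned to 1.73 among non-cycling barcodes (24 against 10 UMIs). From DN3b γδ+ to DN4 γδ+, as γδ cells mature, Etv5 was 2.09-fold higher (log2 1.06, 1.02 to 1.10) among 10.5% of 5827 features, and no gene of the set was among the 7.33% that were lower. Spry2 (0.79), Dusp5 (0.55), Dusp6 (0.49) and Dusp2 (0.31) were higher by less than 2-fold and Spry1 was lower (-0.89). With TMM scaling Etv5 came to 0.76 and Spry1 to -1.19. Spry1 also passed 2-fold among non-cycling barcodes (-1.89) and with the mean of each barcode's CPM (-1.27). The share of cycling barcodes was 81.5% in DN3b γδ+ and 17.8% in DN4 γδ+, and Etv5 differed by 0.66 among cycling barcodes. Among non-cycling barcodes Etv5 stood at 59.8 CPM in DN3b γδ+ and 167 CPM in DN4 γδ+, which is past 2-fold.

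Loss of LAT was examined in 3 comparisons. Lat-KO DN3 γδ− against WT DN3a, both without a γδ TCR on the surface, showed Etv5 lower at -4.32 (-6.64 to -2.71), from 64 UMIs to 3. Per the paper, DN3 cells with a pre-TCR could not be identified in either genotype. Etv5 lay under 20 CPM in both libraries. Of 6100 features that reached it 0.557% were lower and 2.28% higher, and Dusp2 and Dusp5, the 2 genes among them, were neither. The other 5 lay between -0.84 (Spry2) and -0.12 (Dusp6), all below the median over features of 0.22. Cycling barcodes were 2.29% of DN3a and 5.45% of Lat-KO DN3 γδ−. Among cycling barcodes Dusp6 turned to 1.54, from 4 UMIs in DN3a to 28. Within the Lat-KO mice, γδint against γδ− cells had Etv5 higher at 5.62 (4.04 to 7.92, 111 UMIs against 3) and Spry2 lower at -1.10 (-1.66 to -0.57, 40 UMIs against 114). Both lay under 20 CPM. Of 6534 features that reached it 4.64% were higher and 3.95% lower, and the 2 genes among them, Dusp2 and Dusp5, were neither. Cycling barcodes were 25.6% of the γδint and 5.45% of the γδ− library. That Spry2 ratio came within 2-fold under 4 of 11 other settings, at -0.99 to -0.44, the last among non-cycling barcodes. Dusp5 stood at -0.78 and came to -1.03 with TMM scaling. Among non-cycling barcodes Dusp5 stood at 44.1 CPM in γδint and 64.2 CPM in γδ−, and among cycling ones at 22.9 and 42.4 CPM. Dusp2 and Dusp6 stood at 0.35 each and Spry1 at 0.28. Against WT DN3b γδ+, Lat-KO DN3 γδint had 3 genes lower by at least 2-fold, where 7.41% of 6600 features were lower and 24.8% higher. Of these 3, Etv5 alone reached 20 CPM in either library. Etv5 was 24.2-fold lower (log2 -4.60, -4.88 to -4.33), Spry2 14.3-fold lower (-3.84, -4.33 to -3.39) and Dusp6 2.04-fold lower (-1.03, -1.23 to -0.84). Dusp5 (-0.87), Dusp2 (-0.56) and Spry1 (-0.16) lay within 2-fold, while the median of all features was 0.51. With TMM scaling Dusp2 came to -1.30 and Dusp5 to -1.61, and Dusp6 came to -0.99 to -0.95 under 4 settings. Cycling barcodes were 25.6% of Lat-KO DN3 γδint and 81.5% of DN3b γδ+. Dusp5 passed 2-fold among cycling (-1.48) and among non-cycling barcodes (-1.02), Dusp2 among cycling ones (-1.02) and Spry1 among non-cycling ones (-1.10). The sort gates differ between these libraries. Per the methods the WT thymocytes were depleted with beads, while total Lat-KO thymocytes were stained and sorted. Genotype, reporter, depletion and library cannot be told apart.

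**Figure D3:**
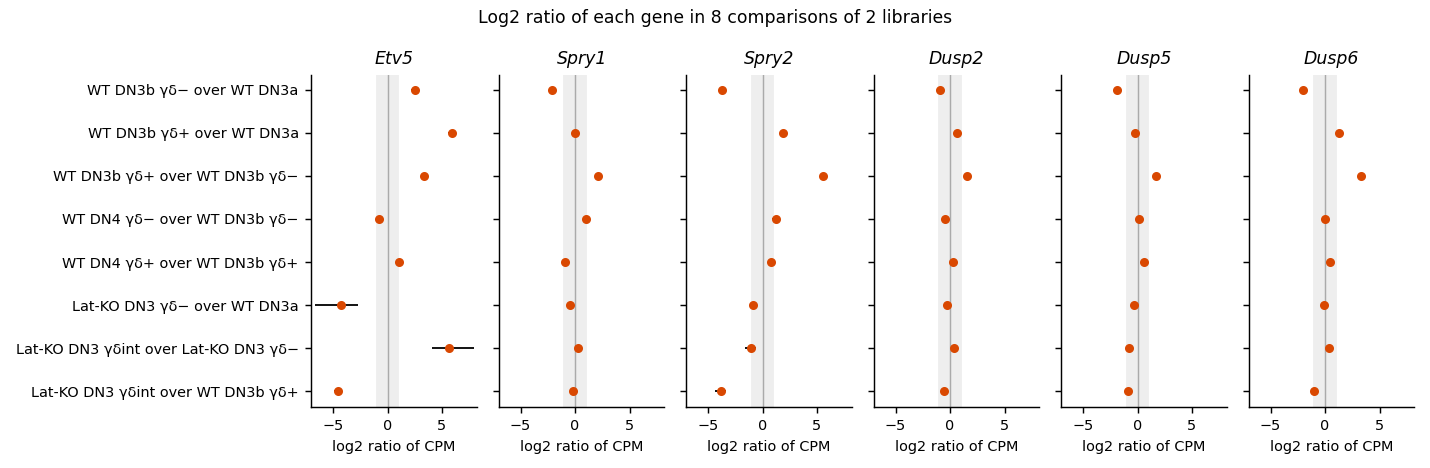
Log2 ratio of CPM (horizontal axis) of each gene in 8 comparisons of 2 libraries, first named over second, with exact conditional binomial 95% intervals, many of which are narrower than the points. The grey band marks ratios within 2-fold. All 6 genes lie to its right where WT DN3b γδ+ is set against γδ− cells, and Etv5 and Spry2 lie farthest left for Lat-KO DN3 γδint over WT DN3b γδ+.

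Within libraries, the genes differed in how they stood with the cycle. Dusp2 and Dusp5 were lower in cycling than in non-cycling barcodes in all 7 libraries, by log2 ratios of -0.81 to -0.24 and of -1.02 to -0.48. Spry1 was lower in all 7 as well, by -1.22 to -0.03. DN3b γδ+, at -1.22 (-1.56 to -0.85), was the only library whose Spry1 interval lay wholly on that side. Etv5 was higher in cycling barcodes of DN3a (3.65, 2.70 to 4.56), DN3b γδ− (1.03, 0.14 to 2.09), DN3b γδ+ (0.27, 0.10 to 0.45) and Lat-KO DN3 γδint (1.77, from 76 and 17 UMIs). In DN4 γδ+ it was lower (-0.56, -0.63 to -0.49), and likewise in DN4 γδ− (-1.63, -2.22 to -0.98). Non-cycling barcodes of DN4 γδ−, 202 in all, held Spry2 at 10.1 CPM (21 UMIs) against 0.496 CPM in the cycling ones. These ratios by cycle were not computed over all features, so whether they are particular to these genes was not tested.

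Barcodes were then grouped by their UMIs of 6 genes that TCR signals induce (Egr1, Egr2, Egr3, Nr4a1, Nab2 and Cd69) at 4000 UMIs. Those with 3 or more made up 20.7% of DN3b γδ+ and 21% of DN4 γδ+ but 4.9% of DN3a, 0.65% of DN3b γδ− and 0.94% of DN4 γδ−. In the mice without LAT 5.58% of DN3 γδ− and 3.7% of DN3 γδint barcodes passed this gate too. In DN3b γδ+, Spry2 stood at 8.62 CPM (7.96 to 9.33) in barcodes without a UMI of the signal genes, 14.8 CPM (14 to 15.7) with 1 to 2 and 28.8 CPM (27 to 30.6) with 3 or more. Over the same groups Spry1 went from 5.23 to 12.6 CPM, Dusp2 from 109 to 215 CPM, Dusp5 from 51.9 to 96.1 CPM and Dusp6 from 10.4 to 16.5 CPM, each higher at both steps. Etv5 did not follow there, with 69.5, 73 and 65.1 CPM, a log2 ratio of -0.09 (-0.17 to -0.02) between the outer groups. The same division held in DN4 γδ+, where the outer groups differed by 1.25 (1.07 to 1.44) in Spry2, 0.77 in Dusp2 and 0.13 (0.05 to 0.21) in Etv5. In DN3a the outer groups differed by 1.27 (0.74 to 1.77) in Spry1, 1.21 (0.56 to 1.81) in Dusp6 and 0.64 (0.45 to 0.83) in Dusp5. Spry2 differed there by 0.51 (-0.48 to 1.36), Dusp2 by 0.37 (0.18 to 0.55) and Etv5 by -0.03 (2 UMIs). In Lat-KO DN3 γδ− Spry1 was at -0.38 (-1.47 to 0.53) and Spry2 at -0.62 (-2.93 to 0.99). Dusp2, Dusp5 and Dusp6 were higher in that library, at 0.23, 0.26 and 0.83. Among its non-cycling barcodes Dusp2 was at 0.13 (-0.10 to 0.36) and Dusp5 at 0.10 (-0.17 to 0.35). In Lat-KO DN3 γδint Dusp2 was at 0.71 (0.46 to 0.95), Dusp5 at 0.74 (0.31 to 1.15) and Dusp6 at 0.03 (-1.44 to 1.18). The same 3 genes were at 0.96, 0.95 and 1.18 (5 UMIs) in DN3b γδ−. In DN4 γδ− they were at 1.12, 1.53 and 2.97 (13 UMIs). Median UMIs per barcode were 18159 and 14454 in the outer groups of DN3b γδ+, and among its cycling barcodes alone the differences were 1.80 for Spry2 and -0.08 for Etv5. Among its non-cycling barcodes, 123 in each outer group, Spry1 differed by 0.11 (-0.76 to 0.98) and Spry2 by 1.28 (0.44 to 2.18). In DN4 γδ− the 111 barcodes with 3 or more signal UMIs held Spry2 at 12.6 CPM (18 UMIs) and Etv5 at 21 CPM (30 UMIs), against 0.54 and 3.41 CPM without any. Etv5 was also higher with 3 or more signal UMIs in DN3b γδ−, by 1.12 (0.50 to 1.68, 26 UMIs), and in Lat-KO DN3 γδint, by 2.41 (1.27 to 3.39, 10 UMIs). The median UMI count of these groups of DN4 γδ− was 8886 against 19539, and the part of depth in these values was not tested. Barcodes of 1 library are not replicates, and these values carry counting error only. The ratios by signal genes were not computed over all features either, so they stand without a background.

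**Figure D4:**
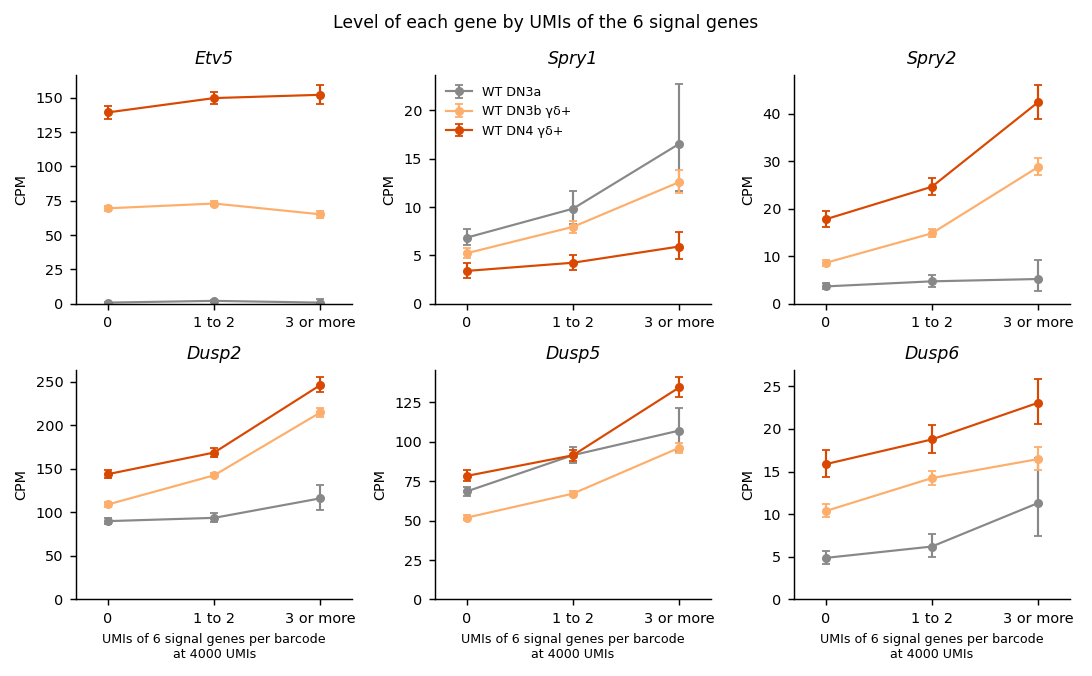
Level in CPM (vertical axes, linear, from 0) of each gene in barcodes with 0, 1 to 2, or 3 or more UMIs of 6 TCR-induced signal genes (horizontal axis) at 4000 UMIs, in WT DN3a, DN3b γδ+ and DN4 γδ+, with exact Poisson 95% intervals. Spry2 and Dusp2 are higher with more signal UMIs in both γδ+ libraries, reaching 28.8 and 215 CPM in DN3b γδ+, while Etv5 stays between 65.1 and 73 CPM there.

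Detection in single barcodes set Etv5 and Spry2 apart in 1 library. In DN4 γδ+, Etv5 was seen in 16.8% (13.7 to 20.2) of the 531 barcodes with a UMI of Spry2 and in 37.9% (36.7 to 39.1) of those without, at 4000 UMIs. Dusp2 went with Spry2, in 56.3% (52 to 60.6) of barcodes with it and 43.2% (41.9 to 44.4) without. Dusp6 went with Etv5, which was seen in 44.8% (40.4 to 49.2) of barcodes with Dusp6 and 35.6% (34.4 to 36.8) without. With Dusp5 Etv5 was seen in 39% (36.9 to 41) of barcodes and without it in 35.1% (33.7 to 36.4). With Dusp2 it was seen less, in 33.6% (31.9 to 35.3) against 38.4% (36.9 to 40) without. In DN3b γδ+ the intervals for Etv5 by Spry2 overlapped, with 20.4% (17.4 to 23.7) and 22.5% (21.7 to 23.3).

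The wider pathway was described with 3 lists, of other ERK feedback genes (18), the ERK cascade (24) and ERK-responsive transcription factors (24), over the genes with at least 20 CPM in either library. In DN3b γδ+ against DN3b γδ−, where 5.13% of all features were at least 2-fold higher and 1.79% lower, 2 of 2 other feedback genes measured were higher, Dusp1 (log2 1.15), a phosphatase that also acts on p38 and JNK, and Rasal3 (1.06), a RAS GTPase-activating protein of leukocytes. Dusp10 did not reach the minimum there. Of the cascade, 3 of 16 genes were higher and none lower. They were the RAS activator Rasgrp1 (1.69), the RAS GTPase-activating protein gene Rasa2 (1.41) and Prkcq (1.03), which encodes protein kinase C-θ. The TMM shift of -0.04 brought Prkcq within 2-fold. Of the transcription factors 9 of 15 were higher and none lower, with the orphan receptor gene Nr4a1 (3.37), Egr1 (3.06) and the EGR corepressor gene Nab2 (2.78) in front. Id3, an inhibitor of E proteins, was at 1.93. The list medians were 1.10, 0.24 and 1.26, against -0.02 over all features. In DN3b γδ− against DN3a, 10 of 14 of the transcription factors were lower, Egr1, Fos and Jun among them, where 14.6% of all features were. Both other feedback genes were lower too, Dusp1 at -2.17 and Rasal3 at -1.05, the latter brought within 2-fold by the TMM shift of 0.36. Id3 was higher, where 11.4% of features were, and of the cascade 2 of 17 genes were higher and 1 lower. In DN3b γδ+ against DN3a, 5 of 16 transcription factors were higher, where 11.5% of all features were, and 5 lower, where 13.4% were. Neither other feedback gene was higher, with Dusp1 lower at -1.03 and Rasal3 at 0.01. The TMM shift of 0.32 brought Dusp1 within 2-fold there. Of the cascade 6 of 17 genes were higher there and none lower. In Lat-KO DN3 γδint against WT DN3b γδ+, 5 of 16 transcription factors were lower, where 7.41% of all features were, and 5 higher, where 24.8% of features were. The lower ones were Egr1 (-1.80), Nab1, Nab2 (-4.98), Nr4a1 (-6.71) and Id3 (-2.98), and the higher ones Fosb, Jun, Junb, Jund and Myc. Of the cascade 3 of 18 genes were lower, Rasgrp1 (-1.89), Rasa2 (-1.66) and Rasgrp2, and 2 were higher, Nf1 and Araf, with a list median of 0.26 against 0.51 over all features. No other feedback gene of 2 was past 2-fold. Dusp1 stood at 0.80. The counts of these lists were not recomputed with TMM scaling, whose shift was -0.74 in this last comparison.

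Across the 7 libraries, the profile of each gene (log2 of CPM + 1, centred) was compared with those of all features with at least 20 CPM in a library, by the root mean square difference. Pdcd1, the gene of the inhibitory receptor PD-1, was most like Etv5 (0.46 log2 units, Pearson's r 0.99), followed by St6gal1 and Ccr7 at 0.69 and 0.70. Tespa1 (0.15) and Cd27 (0.15) were nearest to Dusp2, Srgn (0.17) to Dusp5, Inpp4b (0.28) to Dusp6, Arap2 (0.36) to Spry2 and Mterf3 (0.27) to Spry1. Within the set Dusp2 and Dusp6 were most alike (0.37, r 0.98) and Etv5 and Spry1 least (2.54, r -0.09). These values rest on 7 libraries that differ in depth and cycling, and they are given as a description.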

How the data were processed

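The authors deposited UMI counts per gene and barcode (Cell Ranger 4.0.0 per the file headers, 5.0.1 in the processing notes and methods), aligned to mm10 with the reporter added as a feature. The counts were neither scaled nor corrected. Here barcodes with at least 200 genes and at most 15% mitochondrial UMIs, the limits of the study, were kept, and those with at most 1 UMI of Cd79a, Cd79b and Ms4a1 were taken as thymocytes. B cell barcodes had at least 10 UMIs of these 3 genes and at least 2 times as many as of 10 T cell markers. UMIs were summed per library and scaled to CPM. Libraries held 37820685 to 338698944 thymocyte UMIs. Intervals were exact Poisson (CPM), Clopper-Pearson (shares) and conditional binomial (log2 ratios). In the alternatives a gene with 0 UMIs (Spry2 in non-cycling DN3b γδ− barcodes) entered a ratio as 3 counts. No doublet caller was run, and leaving out the 5% of barcodes with the most UMIs was an alternative. TMM factors came from edgeR 4.0.16 (R 4.3.3). Python 3.11.15 with numpy 2.4.6, scipy 1.17.1 and pandas 2.3.3 was used, and ratios and intervals were checked on simulated counts. Positions came from GENCODE vM21 and start windows from RefSeq. Genes, lists, gates and comparisons were chosen with earlier results of these data known. Sets of DN4 γδ+ barcodes by effector and egress genes are not reported here. Besides the 6 genes, the text names up to 5 genes per pathway list, by the size of the DN3b γδ+ over DN3b γδ− ratio, the nearest of 3 genes by profile, and genes of the lists and gates. Fos, Fosb, Jun, Junb, Jund, Myc, Nab1, Nf1, Araf and Rasgrp2 were named after their values were seen.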

Additional observations from a re-analysis of the deposited data

How the results depend on the processing

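No paired analysis was possible because each group is 1 library, and for the same reason no replicate could be left out. Of 48 ratios of the 6 genes, 22 were past 2-fold, and 15 of these kept their call under all 11 other settings. The counts of genes past 2-fold that moved by over 1.5 times were these. Cycling barcodes alone, a setting added after the data were seen, gave 3 genes in place of 5 for WT DN3b γδ− over DN3a, where Etv5 turned to -0.13 on 18 UMIs in DN3a. That setting also gave 0 in place of 1 for DN4 γδ− over DN3b γδ− (Spry2 at 0.65) and for DN4 γδ+ over DN3b γδ+ (Etv5 at 0.66), 2 in place of 1 when Lat-KO DN3 γδ− was set against DN3a (Etv5 lower and Dusp6 higher, at 1.54) and 5 in place of 3 when Lat-KO DN3 γδint was set against WT DN3b γδ+ (Dusp2 at -1.02 and Dusp5 at -1.48 added). For DN4 γδ− over DN3b γδ−, 2 genes passed with totals that left out mitochondrial and ribosomal-protein genes, with the mean of each barcode's CPM and among non-cycling barcodes, where Etv5 was higher at 1.73. For DN4 γδ+ over DN3b γδ+, 2 passed with the mean of each barcode's CPM and among non-cycling barcodes, with Spry1 added (-1.27 and -1.89). TMM factors exchanged Etv5 (0.76) there for Spry1 (-1.19). With Lat-KO DN3 γδ− set against WT DN3a, 2 passed with TMM factors and with 0 B cell UMIs allowed. Between the γδint and γδ− libraries of Lat-KO DN3, 1 in place of 2 passed without the filter on genes and mitochondrial share, without the 5% of barcodes with the most UMIs, among non-cycling barcodes and, also added later, in every filtered barcode but B cell barcodes. For Lat-KO DN3 γδint over WT DN3b γδ+, 5 passed with TMM factors, and among non-cycling barcodes Spry1 (-1.10) and Dusp5 (-1.02) passed and Dusp6 (-0.95) did not. Totals without mitochondrial and ribosomal-protein genes added Dusp5 there (-1.03) and Dusp2 for WT DN3b γδ− over DN3a (just past 2-fold). Cycling barcodes alone added Dusp2 for WT DN3b γδ+ over DN3a (1.29). The cause of these changes was not tested. With 1 library per group, depth limits only counting error, which is widest for Etv5 in Lat-KO DN3 γδ− (3 UMIs).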
